A study of Mus musculus with 15 samples.

Results

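Glycolysis and hypoxia response genes were followed as a set of 36 genes, made of glycolytic enzymes, the glucose and lactate transporters beside them, and targets of the hypoxia-inducible factor (HIF). They were chosen by name, and all 36 were found among the 54456 gene names of the count table and passed the filter on low counts, which kept 18140 genes for testing. The RNA came from organoids of wild-type (WT) mouse mammary gland epithelium, grown in DMEM/F12 with L-Ala-Gln, ITS and antibiotics, in an in vitro migration experiment. The series asks whether the epithelium undergoes an epithelial to mesenchymal transition while it migrates as a collective. Organoids set beside beads soaked in FGF10 were collected at 36 h (FGF10 36 h, 3 libraries) and 72 h (FGF10 72 h, 3 libraries). Organoids beside beads soaked in BSA (bovine serum albumin, the control) were collected at the same times (BSA 36 h and BSA 72 h, 3 libraries each), and 3 libraries were made at 0 h, whose treatment label names no bead. The titles of the FGF10 72 h libraries read FGF0, and the treatment label was followed. The age and number of mice, the FGF10 dose and whether the libraries of a group came from separate cultures are not given in the sources used here, so p-values measure the spread between these libraries, which may be technical.

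Glycolysis breaks glucose down to pyruvate in the cytosol. Glucose enters through facilitative transporters, is trapped by hexokinase, is committed at phosphofructokinase and leaves as pyruvate, which either enters mitochondria through pyruvate dehydrogenase or is turned into lactate and exported by monocarboxylate transporters. In low oxygen the HIF prolyl hydroxylases slow down, HIF-1α escapes degradation, and the factor binds a short DNA core in the promoters of most glycolytic genes and of genes for angiogenesis, pH control and mitophagy. In the mammary gland, glucose is also the substrate for lactose, and FGF10 from the stroma is a signal for bud formation and branching.

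Total counts ran from 11965322 to 24261233 per library. The 36 genes took 0.415 to 0.522% of counts at 0 h, 1.37 to 1.8% in FGF10 36 h, 1.65 to 2.9% in BSA 36 h, 1.36 to 1.55% in FGF10 72 h and 1.89 to 2% in BSA 72 h. Epcam and Krt8, which mark epithelium, were at 1480 to 3920 and 2270 to 5880 CPM (counts scaled to the normalized library size) in all 15 libraries. Markers of other cells were present as well, and their values stand beside the results they moved with. In 0 h replicate 1 the proliferation marker Mki67 stood at 49.1 CPM, against 4.45 and 2.92 CPM in the other 0 h libraries. Mitochondrial transcripts took 1.11% of counts in FGF10 36 h replicate 4, against 3.6 and 3.97% in the other libraries of that group. BSA 72 h libraries 2_1 and 2_2 share a number and lay closer to each other (mean chi-square 4.32 per gene) than to replicate 3 (11.7 and 9.58), and they were counted as separate libraries. That difference is above counting noise, which does not tell separate cultures from repeat libraries of 1 culture, so a fit with both summed is given beside the 72 h calls. Fewer cells of a type and less RNA per cell cannot be told apart in such bulk libraries.

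The levels of the 36 genes spanned a wide range. On a scale of CPM per kb of exon, averaged over the 15 libraries, lactate dehydrogenase A (Ldha, 1100), aldolase A (Aldoa, 1010), pyruvate kinase M (Pkm, 780) and triosephosphate isomerase (Tpi1, 483) stood above all others. Next came enolase 1 (Eno1) at 93.2 CPM per kb, and the lowest were the regulator Pfkfb4 (1.61) and neuronal-type enolase Eno2 (0.751). Glyceraldehyde-3-phosphate dehydrogenase (Gapdh) stood at only 7.28 CPM per kb. Gapdh, Pgk1, Pgam1 and Eno1, like several other members, have near-identical processed copies in the mouse genome, and fragments that matched several places were not counted, so their levels are uncertain.

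**Figure D1:**
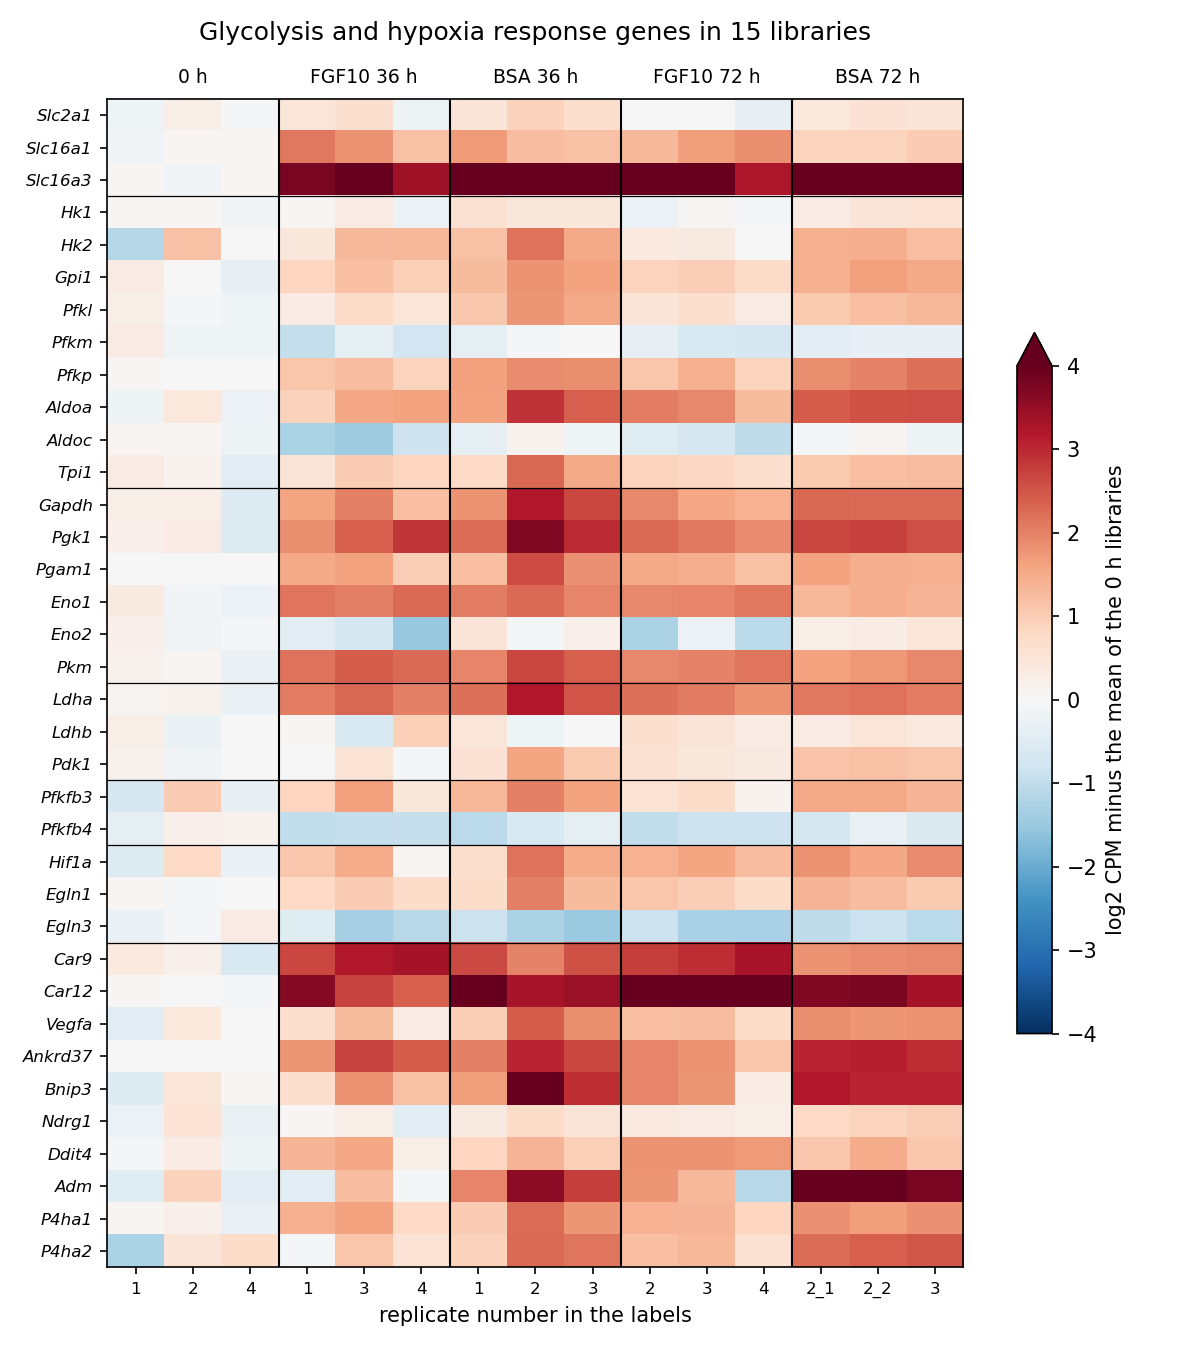
Heat map of the 36 genes (rows, grouped by role from transporters at the top to HIF targets at the bottom) in the 15 libraries (columns, by group and replicate number). Colour is log2 CPM minus the mean of the 0 h libraries, and values above 4 share the darkest red. Most rows are redder in the later groups than at 0 h, Slc16a3 and Car12 most of all, while Egln3 and Pfkfb4 are blue in the 12 later libraries.

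Promoters of 6 of the 12 members called between the beads are shown first. They were chosen from called members whose window holds the HIF core, which is a description of the sequence and not a mapped binding site. The core searched was ACGTG or GCGTG on either strand, so that CACGT and CACGC count as matches on the other strand and CACGTG counts on both. The windows are RefSeq promoters of 300 bases (250 before and 50 after the start) on GRCm38.p6, a build other than the GRCm39 of the counts. Each has a single window in that table, is printed 5′ to 3′ on the strand of its gene, and has every match in capitals. They belong to the phosphofructokinases Pfkl (chr10:78009758-78010057, minus strand) and Pfkp (chr13:6648722-6649021, minus strand), the lactate exporter Slc16a3 (chr11:120948817-120949116, plus strand), the adrenomedullin gene Adm (chr7:110627407-110627706, plus strand), Ankrd37 (chr8:45999801-46000100, minus strand) and carbonic anhydrase 9 (Car9, chr4:43506776-43507075, plus strand).
Pfkl: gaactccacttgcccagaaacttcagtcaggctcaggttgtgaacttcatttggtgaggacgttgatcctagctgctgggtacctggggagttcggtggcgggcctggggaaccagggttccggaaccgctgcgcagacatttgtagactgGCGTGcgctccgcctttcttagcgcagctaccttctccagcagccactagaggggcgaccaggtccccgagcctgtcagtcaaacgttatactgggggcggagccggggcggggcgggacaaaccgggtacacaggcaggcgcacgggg
Pfkp: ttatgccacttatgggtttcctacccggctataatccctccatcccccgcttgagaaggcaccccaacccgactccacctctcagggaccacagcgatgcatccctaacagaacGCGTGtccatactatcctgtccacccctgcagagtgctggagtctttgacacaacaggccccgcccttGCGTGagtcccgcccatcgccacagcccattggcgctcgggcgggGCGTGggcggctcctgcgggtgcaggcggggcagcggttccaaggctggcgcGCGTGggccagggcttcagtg
Slc16a3: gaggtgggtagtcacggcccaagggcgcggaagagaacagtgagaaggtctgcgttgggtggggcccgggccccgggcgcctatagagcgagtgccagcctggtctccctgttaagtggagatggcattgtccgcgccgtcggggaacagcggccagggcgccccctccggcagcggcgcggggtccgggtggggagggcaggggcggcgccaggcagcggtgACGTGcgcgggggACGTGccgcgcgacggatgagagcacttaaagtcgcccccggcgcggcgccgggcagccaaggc
Adm: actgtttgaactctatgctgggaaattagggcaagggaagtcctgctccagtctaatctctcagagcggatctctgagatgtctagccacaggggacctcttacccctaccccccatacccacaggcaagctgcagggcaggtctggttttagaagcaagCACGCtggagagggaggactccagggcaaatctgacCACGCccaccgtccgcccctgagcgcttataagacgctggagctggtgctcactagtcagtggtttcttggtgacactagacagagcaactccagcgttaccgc
Ankrd37: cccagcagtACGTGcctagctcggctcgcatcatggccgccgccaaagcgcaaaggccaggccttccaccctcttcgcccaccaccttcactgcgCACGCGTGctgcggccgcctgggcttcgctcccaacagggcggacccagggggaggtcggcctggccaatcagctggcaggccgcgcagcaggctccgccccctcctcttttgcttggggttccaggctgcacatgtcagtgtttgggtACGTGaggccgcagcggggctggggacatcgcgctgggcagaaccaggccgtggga
Car9: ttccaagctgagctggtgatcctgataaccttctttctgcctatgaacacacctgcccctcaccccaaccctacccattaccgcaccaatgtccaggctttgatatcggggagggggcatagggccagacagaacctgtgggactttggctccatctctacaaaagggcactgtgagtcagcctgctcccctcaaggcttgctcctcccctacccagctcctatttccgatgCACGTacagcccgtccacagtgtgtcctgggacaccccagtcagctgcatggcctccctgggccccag
Pfkp held 4 matches to GCGTG, and Slc16a3 held 2 matches to ACGTG, close to the start site. Ankrd37 held 2 of ACGTG and 2 of GCGTG; these GCGTG matches overlap on opposite strands. Of the 35 members with a promoter in the table (Ndrg1 was not matched), 31 held at least 1 match in at least 1 window, or 88.6%, against 65.2% of the tested genes with a promoter. By window, 55.1% of the members' 49 windows held ACGTG, against 24.4% of the windows of tested genes, and 57.1% held GCGTG, against 47.7%. The windows' median GC content was 62% for members and 60% for tested genes. Eno2 and Gpi1, which were called between the beads at 72 h, had no match in their windows, and neither had Car12 and Tpi1. Many members were named as HIF targets when the set was made, so these shares describe the set and give no test.

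At 36 h, 4 of the 36 genes were lower with FGF10 than with BSA and 0 were higher, while 2.34% of all tested genes were called in either direction (0.954% higher and 1.39% lower). The 4 were the aldolase Aldoc, the phosphofructokinases Pfkl and Pfkp, which catalyse the committed step of glycolysis, and pyruvate dehydrogenase kinase 1 (Pdk1), which keeps pyruvate out of mitochondria. The median log2 difference of the 36 genes was -0.593, against 0.002 for all tested genes, and 30 of 36 estimates lay below 0. At an unadjusted p under 0.05 edgeR gave 21 lower and 1 higher member, beside 18.7% of all tested genes.

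Aldoc stood at 98.6, 87.8 and 132 CPM in the FGF10 36 h libraries, against 185, 257 and 207 CPM in BSA 36 h (log2 difference -1.03, SE 0.187, adjusted p = 0.0105). Pfkl, the liver-type subunit, had 152, 207 and 169 CPM in FGF10 36 h, against 253, 411 and 346 CPM in BSA 36 h (log2 difference -0.94, SE 0.183, adjusted p = 0.0163). In neither gene did the groups overlap, although BSA 36 h replicate 1 was the lowest BSA library in both. Pfkp, the platelet-type subunit, had 102, 112 and 87.5 CPM in FGF10 36 h, against 148, 176 and 171 CPM in BSA 36 h (log2 difference -0.71, SE 0.149, adjusted p = 0.0234). For Pdk1 the values were 31.8, 46.2 and 30.6 CPM in FGF10 36 h, against 47.99, 94.2 and 65.6 CPM in BSA 36 h (log2 difference -0.94, SE 0.206, adjusted p = 0.0273). The Pdk1 groups came close to each other, FGF10 replicate 3 lying just under BSA replicate 1, and the Pfkp groups were well apart.

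Aldoc was called whichever of the 15 libraries was left out, while the other calls depended on single libraries. Without BSA 36 h replicate 2, adjusted p was 0.101 for Pdk1, 0.0644 for Pfkl and 0.0716 for Pfkp. Without BSA 36 h replicate 3 it was 0.0848, 0.0672 and 0.0977 for the same genes in that order, and without FGF10 36 h replicate 1 it was 0.0936, 0.0664 and 0.064. Pdk1 was also lost without FGF10 36 h replicate 4 (adjusted p = 0.0717). Over all tested genes 199, 127, 203 and 572 were called in those fits, in that order. Leaving out BSA 36 h replicate 1 gave 13 called members, all lower, among 581 genes called in all. A fit of only these groups gave 0 members and 78 genes (edgeR), and the Wald test of DESeq2 gave 13 members and 1083 genes, where 425 genes were called in the full fit.

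The transporters were not called at 36 h. The estimate was -0.37 (adjusted p = 0.322) for the glucose transporter Slc2a1, 0.34 (adjusted p = 0.402) for the lactate transporter Slc16a1 and -1.75 (adjusted p = 0.0725) for its partner Slc16a3, the form that cells making much lactate use for export. Among HIF targets, the vasodilator peptide gene Adm had an estimate of -2.46 (adjusted p = 0.0793) and the mitophagy receptor Bnip3 one of -1.93 (adjusted p = 0.099), without a call. The estimates of the remaining uncalled members ran from -1.28 for P4ha2 to 0.66 for Car9, and the smallest adjusted p among them was 0.0873, for Eno2. The 3 FGF10 36 h libraries were all below the 3 BSA 36 h libraries in 10 members, Slc16a3 and Adm among them, and all above them in 1, Car9. Such separation was seen in 9.53% and 9.88% of all tested genes.

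At 72 h, 8 of the 36 genes were lower with FGF10 than with BSA and 2 were higher, while 5.99% of all tested genes were called (2.98% lower and 3.01% higher). The lower genes were the glycolytic enzymes Hk1, Gpi1, Pfkl, Pfkp and Eno2, the lactate transporter Slc16a3 and the HIF targets Ankrd37 and Adm, and the higher ones were Eno1 and Car9. The median log2 difference was -0.573, against -0.007 for all tested genes. The 3 FGF10 libraries lay below all 3 BSA libraries in 23 members and above them in 6, where 21.7% of tested genes were separated in the first way and 21.9% in the second. At an unadjusted p under 0.05 there were 18 lower and 4 higher members, beside 23.5% of all tested genes. Pfkl and Pfkp were the members called at both times.

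**Figure D2:**
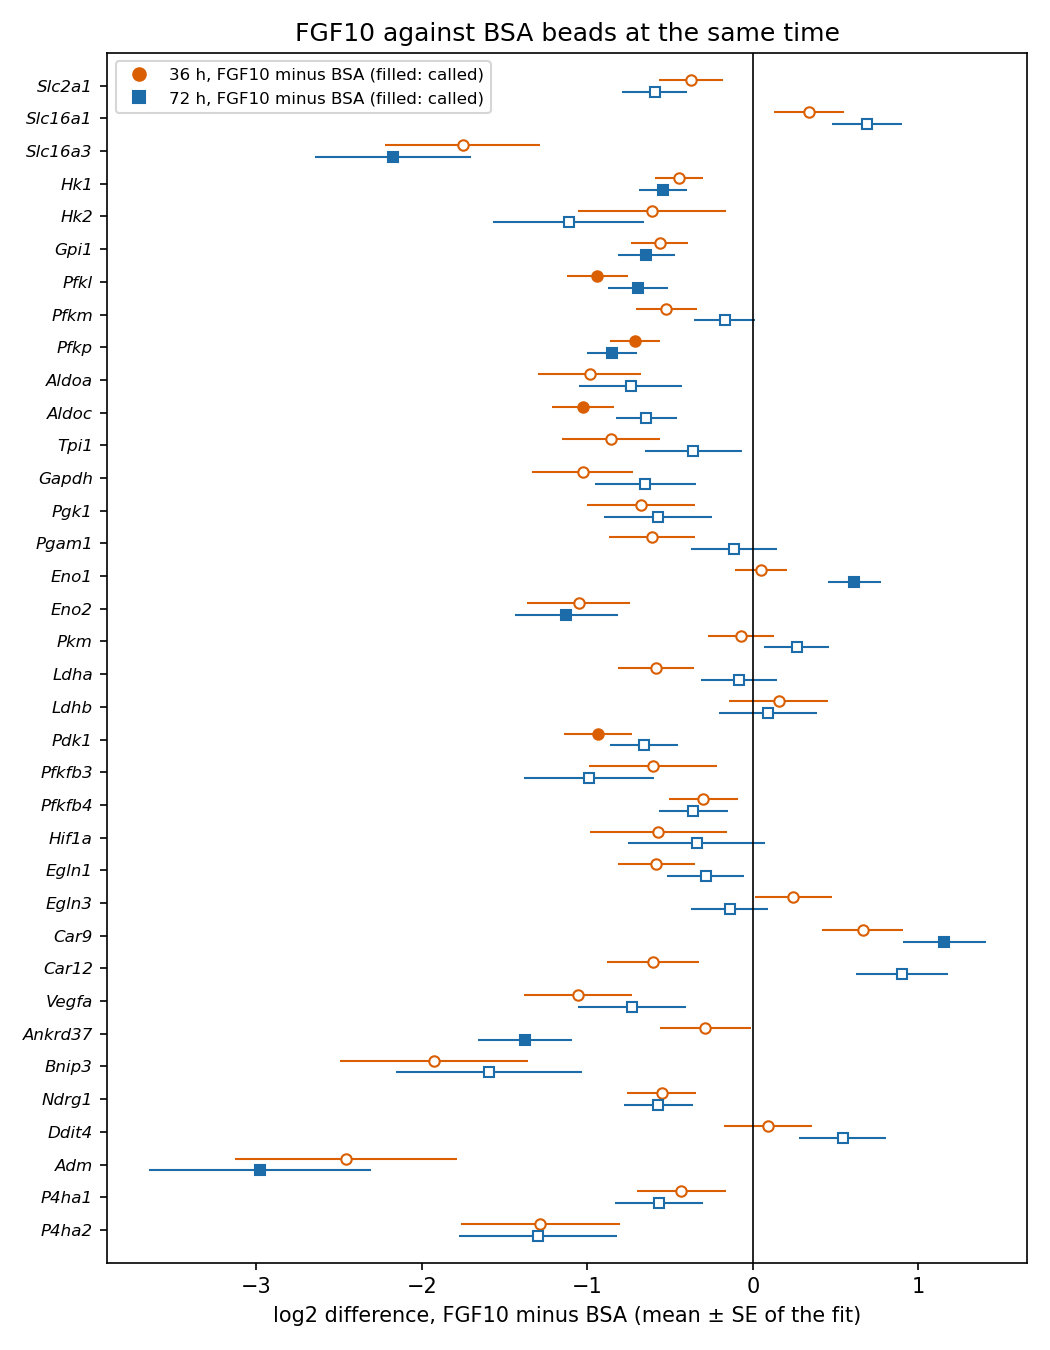
Log2 difference of each of the 36 genes, FGF10 minus BSA, at 36 h (circles) and 72 h (squares), with the standard error of the fit as bars. Filled symbols were called at an adjusted p under 0.05, 4 at 36 h and 10 at 72 h, and 28 genes lie left of 0 at both times.

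Slc16a3 and Adm were the called members that differed most. Slc16a3 had 19.4, 14.7 and 6.88 CPM in FGF10 72 h, against 61.1, 69.7 and 54.4 CPM in BSA 72 h (log2 difference -2.18, SE 0.471, adjusted p = 0.0224). Adm had 9.56, 6.84 and 1.28 CPM in FGF10 72 h, against 49.1, 50.97 and 38.5 CPM in BSA 72 h (log2 difference -2.98, SE 0.669, adjusted p = 0.0264). Every FGF10 library was far below every BSA library in both genes, and FGF10 72 h replicate 4 was the lowest of all 6. Ankrd37, an ankyrin repeat protein gene that HIF induces, had 6.03, 5.49 and 3.41 CPM in FGF10 72 h, against 12.98, 13.6 and 12.1 CPM in BSA 72 h (log2 difference -1.38, SE 0.282, adjusted p = 0.0137). Car9, a membrane carbonic anhydrase that acidifies the outside of the cell and a widely used hypoxia marker, went the other way. It had 11.5, 13.1 and 16.3 CPM in FGF10 72 h, against 5.85, 6.19 and 6.29 CPM in BSA 72 h (log2 difference 1.16, SE 0.249, adjusted p = 0.0168). The BSA libraries lay within a narrow band for Car9, and the lowest FGF10 library was well above it.

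Among the enzymes, Pfkp had 103, 127 and 88.5 CPM in FGF10 72 h, against 170.2, 185 and 217 CPM in BSA 72 h (log2 difference -0.85, SE 0.15, adjusted p = 0.00653). Pfkl had 172, 187 and 152 CPM in FGF10 72 h, against 250.2, 276 and 300.3 CPM in BSA 72 h (log2 difference -0.69, SE 0.183, adjusted p = 0.0378). The groups did not overlap in either. Hexokinase 1 (Hk1), which phosphorylates glucose on entry, had 105, 129 and 119.8 CPM in FGF10 72 h, against 157, 176 and 182 CPM in BSA 72 h (log2 difference -0.54, SE 0.145, adjusted p = 0.0412). Glucose-6-phosphate isomerase (Gpi1) had 97.2, 104 and 90.3 CPM in FGF10 72 h, against 142, 163 and 150.2 CPM in BSA 72 h (log2 difference -0.64, SE 0.174, adjusted p = 0.0416). These were small but separate differences, and the FGF10 levels of Hk1 were near those at 0 h (129, 128 and 115 CPM).

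The enolases moved in opposite directions. Eno1, the main enolase of these cells, had 585, 597 and 659 CPM in FGF10 72 h, against 386, 422 and 396 CPM in BSA 72 h (log2 difference 0.61, SE 0.159, adjusted p = 0.0356). Eno2 had 1.604, 3.29 and 1.83 CPM in FGF10 72 h, against 4.52, 4.71 and 5.31 CPM in BSA 72 h (log2 difference -1.13, SE 0.312, adjusted p = 0.0464). No FGF10 library reached the other group in either gene, but Eno2 was low throughout, and FGF10 replicate 3 stood above the other FGF10 libraries.

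**Figure D3:**
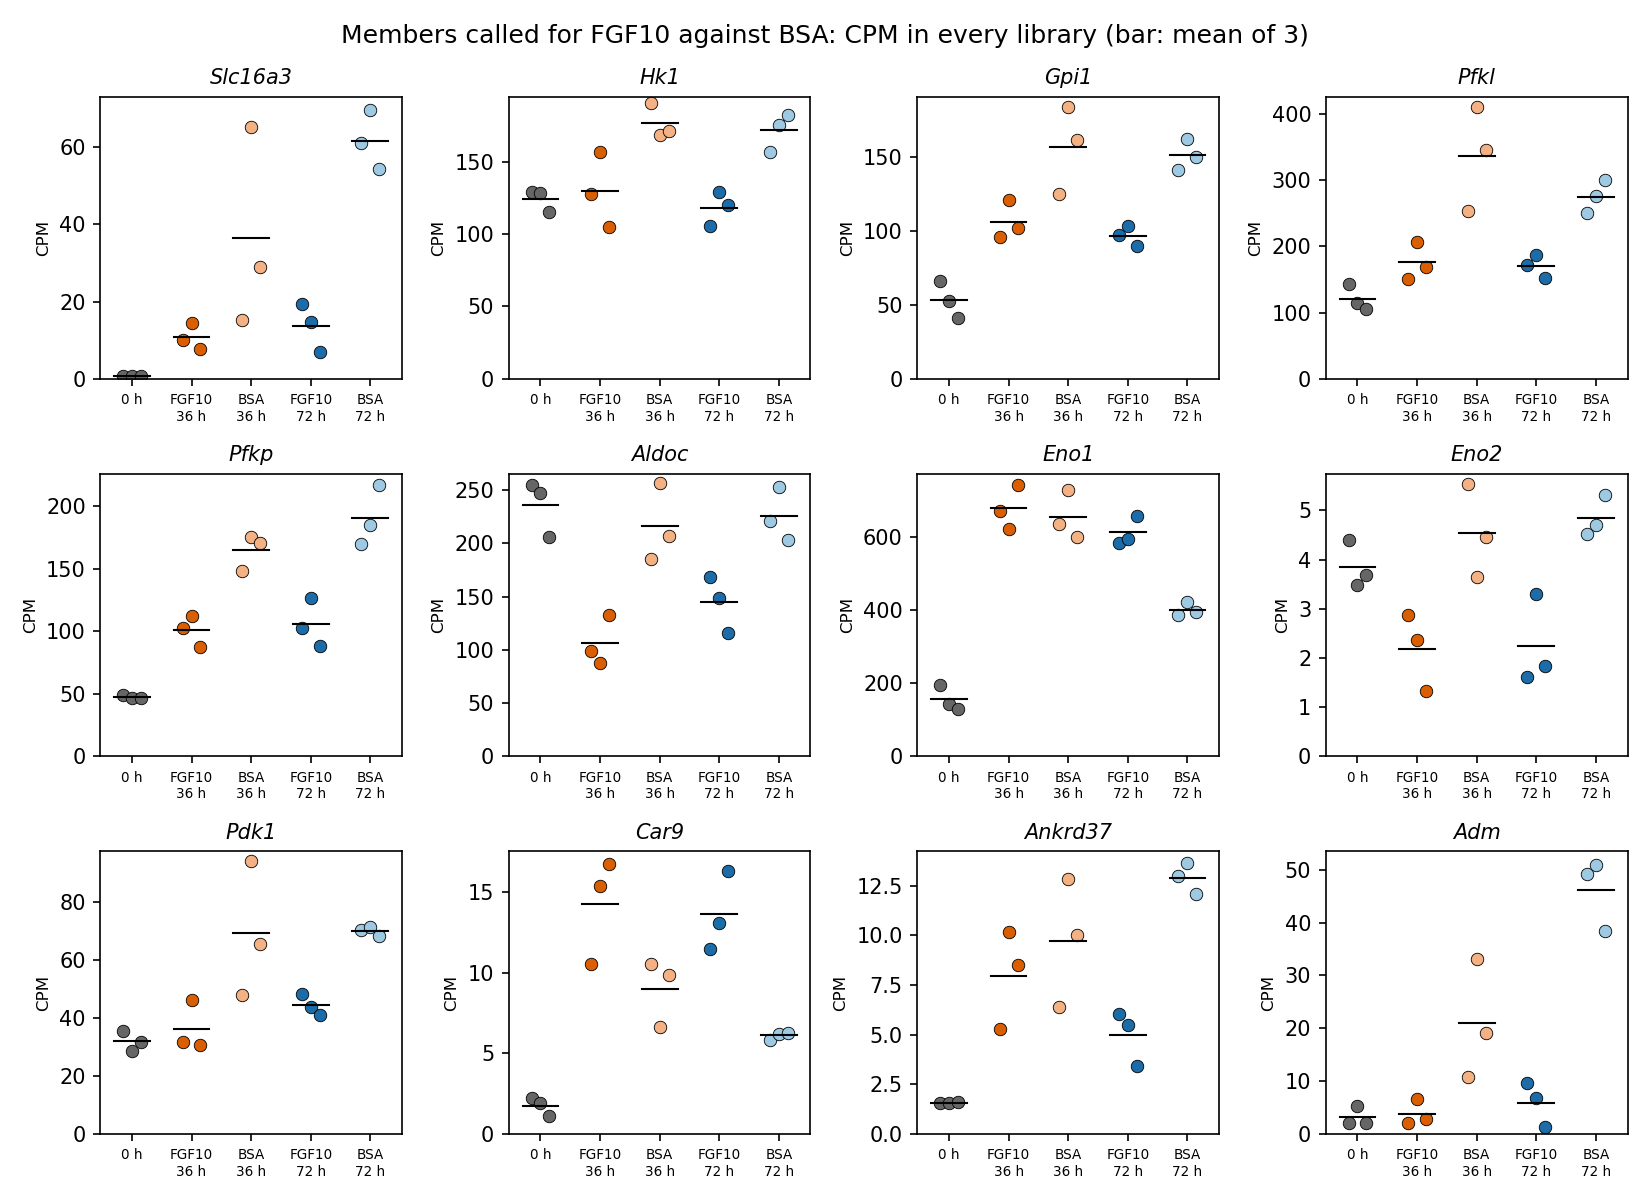
CPM of the 12 genes called for FGF10 against BSA at 36 h or 72 h, each point a library and each bar the mean of 3, at 0 h and then with FGF10 left of BSA at each time. At 72 h the FGF10 and BSA points are apart in all 12 panels, with FGF10 above BSA in Eno1 and Car9, and at 36 h the BSA points are spread widely in Slc16a3, Pdk1 and Adm.

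The 72 h calls changed with the libraries in the fit, as did the number of all tested genes called, 1087 in the full fit. Without FGF10 72 h replicate 4 none of the 10 was kept by edgeR, Pfkp coming closest (adjusted p = 0.0539) and Eno2 lying farthest (0.218). Of the 10 calls, 2 were kept without BSA 72 h library 2_1 (Pfkp and Ankrd37), 1 without library 2_2 (Pfkp) and 2 without BSA 72 h replicate 3 (Pfkp and Ankrd37). Leaving out FGF10 72 h replicate 2 kept 5 of them, leaving out replicate 3 of that group kept 4, and leaving out BSA 36 h replicate 3 kept 6. Eno2 alone was lost without 0 h replicate 2 (adjusted p = 0.0504), 0 h replicate 4 (0.0523) or FGF10 36 h replicate 3 (0.0526). Over all tested genes 148 were called without FGF10 72 h replicate 4, 559 without replicate 2 and 424 without replicate 3 of that group. Without BSA 72 h library 2_1, library 2_2 or replicate 3 there were 317, 251 and 257, and without BSA 36 h replicate 3 there were 930. The fits that lost Eno2 alone called 1179, 1175 and 1182 genes in the order given. The 10 estimates kept their sign in each of these fits. The adjusted p values of the genes lost were 0.071 to 0.152 without FGF10 72 h replicate 2, 0.069 to 0.0869 without FGF10 72 h replicate 3, 0.0573 to 0.126 without BSA 72 h library 2_1, 0.0574 to 0.143 without BSA 72 h library 2_2, 0.0594 to 0.143 without BSA 72 h replicate 3 and 0.053 to 0.0628 without BSA 36 h replicate 3. With libraries 2_1 and 2_2 summed as 1 library only Pfkp was called, among 277 genes in all, while a fit of the 72 h groups alone called 22 lower and 5 higher members among 5025 genes. With no filter on low counts the calls of Slc16a3 (adjusted p = 0.0532), Adm (0.0559) and Hk1 (0.0521) were lost.

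Members that were not called at 72 h gave these estimates. In upper glycolysis they were -1.11 (adjusted p = 0.162) for the inducible hexokinase Hk2, -0.17 (adjusted p = 0.63) for the muscle-type phosphofructokinase Pfkm, -0.74 (adjusted p = 0.161) for Aldoa, -0.64 (adjusted p = 0.0526) for Aldoc and -0.36 (adjusted p = 0.497) for Tpi1. In lower glycolysis they were -0.65 (adjusted p = 0.219) for Gapdh, -0.57 (adjusted p = 0.315) for phosphoglycerate kinase Pgk1, -0.11 (adjusted p = 0.841) for the mutase Pgam1 and 0.27 (adjusted p = 0.454) for Pkm. Of these 9 enzymes Pkm alone had an estimate above 0. At the fate of pyruvate, Ldha had -0.08 (adjusted p = 0.87), Ldhb, the form that favours lactate use, had 0.09 (adjusted p = 0.889) and Pdk1 had -0.66 (adjusted p = 0.0698). The transporters Slc2a1 and Slc16a1 had -0.59 (adjusted p = 0.083) and 0.69 (adjusted p = 0.0655). The regulators Pfkfb3 and Pfkfb4, which make and remove the activator of phosphofructokinase, had -0.99 (adjusted p = 0.148) and -0.36 (adjusted p = 0.32).

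Of the oxygen sensing genes, Hif1a, which encodes the regulated subunit of the factor, had -0.34 (adjusted p = 0.678), and the prolyl hydroxylases Egln1 and Egln3, which mark it for destruction, had -0.28 (adjusted p = 0.498) and -0.14 (adjusted p = 0.772). HIF activity is set mostly by protein stability, which these counts do not measure. Of the other HIF targets, the angiogenic factor Vegfa had -0.73 (adjusted p = 0.195), Bnip3 -1.59 (adjusted p = 0.115), the stress gene Ndrg1 -0.57 (adjusted p = 0.112), and the collagen prolyl hydroxylase subunits P4ha1 and P4ha2 -0.57 (adjusted p = 0.218) and -1.30 (adjusted p = 0.126). Estimates above 0 were those of Car12, another membrane carbonic anhydrase, at 0.90 (adjusted p = 0.0698), and the mTORC1 inhibitor Ddit4, at 0.54 (adjusted p = 0.225).

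Markers of other cells moved along with the bead. At 72 h, 6 of 10 tested adipocyte markers, 7 of 9 immune markers and 2 of 12 endothelial markers were lower with FGF10, and 0 of 12 fibroblast markers were lower and 1 was higher. Of all tested genes 2.98% were lower and 3.01% higher. The summed CPM of the 12 adipocyte genes ran from 11.8 to 75.2 in FGF10 72 h, against 429.8 to 439 in BSA 72 h, and that of the endothelial genes from 19.4 to 42.9, against 129 to 302. For immune genes the sums were 83.04 to 141 in FGF10 72 h and 375 to 456 in BSA 72 h, and for fibroblast genes 218 to 492 and 657 to 772. The immune sums were mostly Lyz2, which averaged 74.03 CPM in FGF10 72 h and 243.3 in BSA 72 h, beside mean sums of 115.7 and 419. The fibroblast sums were mostly Postn, which averaged 333.2 CPM in FGF10 72 h and 629.4 in BSA 72 h, beside mean sums of 379.6 and 697. Epithelial genes summed to 32110 to 37700 CPM in FGF10 72 h, against 18240 to 19950 in BSA 72 h, and 3 of 12 were higher. That sum was mostly keratins. Krt14 averaged 11960 CPM in FGF10 72 h and 3666 in BSA 72 h, Krt19 7907 and 4564, and Krt5 3044 and 1286. Epcam averaged 1907 and 1557 CPM, and Cldn3 613.6 and 595.4. Of the 12 estimates, 11 lay above 0 and 1 below, with a median of 0.227. Adipoq was at 0 counts in FGF10 72 h replicates 3 and 4, and at 17.1 to 25 CPM in BSA 72 h. Pecam1 ran from 0.487 to 2.12 CPM in FGF10 72 h, against 7.48 to 21.5 in BSA 72 h, Ptprc from 0.122 to 0.591, against 1.44 to 2, and Col1a1 from 0.366 to 2.11, against 3.71 to 9.53. Krt14, of basal cells, ran from 10300 to 13600 CPM in FGF10 72 h, against 3390 to 3920 in BSA 72 h.

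At 36 h the adipocyte, endothelial, fibroblast and immune sums in BSA libraries were below those of BSA 72 h. Adipocyte genes summed to 16.5 to 24.8 CPM in FGF10 36 h, against 36.5 to 87.3 in BSA 36 h, endothelial genes to 20.4 to 40.04, against 25.8 to 104, fibroblast genes to 161 to 235, against 209.9 to 524, and immune genes to 86.5 to 226, against 152 to 230.1. Of these lists 1 of 10 adipocyte and 1 of 9 immune markers were called, both lower, and 0 of 12 endothelial and 0 of 12 fibroblast markers. Of all tested genes 1.39% were lower and 0.954% higher. The Adipoq transcript was at 0 in FGF10 36 h replicates 3 and 4 and in BSA 36 h replicates 1 and 3. The part of these cells in the members' differences at either time was not tested.

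The change of the FGF10 effect between 36 h and 72 h was tested directly, and 0 of the 36 genes passed, as did 0% of all tested genes by edgeR. The smallest adjusted p among members was 0.753. At an unadjusted p under 0.05 there were 2 members above 0 and 1 below, among 998 genes in all, and DESeq2 called 0 members and 19 genes. Car12 had the estimates -0.60 at 36 h and 0.90 at 72 h, and the change, 1.50 on the log2 scale (SE 0.392), had an adjusted p of 0.753. For Ankrd37 the change was -1.09 (adjusted p = 0.782) and for Eno1 0.56 (adjusted p = 0.873). Calls at a single time are therefore not shown to be particular to it.

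Most of the set rose in culture with either bead. Of the 36 genes, 29 were higher and 2 lower in BSA 36 h than at 0 h, where 12.7% of all tested genes were higher and 14.4% lower (27.1% in either direction). In FGF10 36 h, 19 were higher and 5 lower than at 0 h, beside 39.8% of all tested genes called (19.3% higher and 20.5% lower). At 72 h the counts were 19 higher and 4 lower with FGF10 (29.9% of tested genes called, 13.8% higher and 16% lower) and 28 higher and 1 lower with BSA (25.2% called, 12.2% higher and 13% lower). The median log2 differences were 0.901 in FGF10 36 h, 1.593 in BSA 36 h, 1.017 in FGF10 72 h and 1.431 in BSA 72 h, and those of all tested genes lay between -0.018 and 0.011. A total of 17 members were higher than at 0 h in all 4 comparisons, which share the 0 h libraries, and Egln3 was lower in all 4. The share of all tested genes called in all 4 was not counted, so these numbers only describe the set. By separation of the libraries, 19 members lay wholly above and 5 wholly below 0 h in FGF10 36 h, where 21.5% and 23.3% of tested genes did so. In BSA 36 h the numbers were 28 and 1 (20.2% and 20.6%), in FGF10 72 h 23 and 5 (23.9% and 24%) and in BSA 72 h 32 and 2 (21.9% and 23.5%).

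Slc16a3 changed most. It had 0.7604, 0.677 and 0.7703 CPM at 0 h, 10.1, 14.5 and 7.78 CPM in FGF10 36 h and 15.2, 65.2 and 28.9 CPM in BSA 36 h, so that the BSA libraries spread over a wide range. Its log2 difference from 0 h was 3.85 in FGF10 36 h (SE 0.607, adjusted p = 0.000424), 5.60 in BSA 36 h (SE 0.613, adjusted p = 4.68e-05), 4.18 in FGF10 72 h and 6.36 in BSA 72 h. Car12 had 4.73, 4.55 and 4.46 CPM at 0 h, 58.1, 29.8 and 23.9 CPM in FGF10 36 h, 73.9, 45.2 and 50.6 CPM in BSA 36 h, 99.5, 87.3 and 126 CPM in FGF10 72 h and 59.7, 62.2 and 45.9 CPM in BSA 72 h. Its differences from 0 h were 3.02, 3.62, 4.51 and 3.61 in the same order of groups, and no later library overlapped 0 h. Car12 was also the member that rose between 36 h and 72 h with FGF10 (log2 difference 1.49, SE 0.282, adjusted p = 0.015).

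Adm, Bnip3 and Pgk1 had the next largest called rises. Bnip3 had 9.38, 18.8 and 13.8 CPM at 0 h, 21.3, 47.1 and 30.1 CPM in FGF10 36 h, 42.9, 228 and 105 CPM in BSA 36 h, 51.9, 46.1 and 16.6 CPM in FGF10 72 h and 123, 111 and 111 CPM in BSA 72 h. It rose in BSA 36 h (log2 difference 3.18, SE 0.603, adjusted p = 0.00239) and in BSA 72 h (log2 difference 3.06, SE 0.6, adjusted p = 0.003), and its estimates of 1.25 (adjusted p = 0.103) in FGF10 36 h and 1.47 (adjusted p = 0.0765) in FGF10 72 h were not called. Pgk1, the first ATP-making enzyme of the pathway, had 13.8, 14.8 and 8.199 CPM at 0 h, 42.9, 61.9 and 86.3 CPM in FGF10 36 h, 56.1, 154 and 94.4 CPM in BSA 36 h, 56.8, 51.4 and 43.9 CPM in FGF10 72 h and 76.5, 79.8 and 70.2 CPM in BSA 72 h. Every later Pgk1 library lay above the 0 h libraries, and the log2 difference in BSA 36 h was 3.06 (SE 0.357, adjusted p = 5.5e-05). Adm had 1.99, 5.32 and 2.04 CPM at 0 h, 2.02, 6.58 and 2.72 CPM in FGF10 36 h and 10.8, 33.2 and 19.03 CPM in BSA 36 h. It rose in BSA 36 h (log2 difference 2.83, SE 0.694, adjusted p = 0.0102) and in BSA 72 h (log2 difference 3.97, SE 0.714, adjusted p = 0.00173), and its FGF10 libraries overlapped those at 0 h at both times.

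The most abundant enzymes were called higher than at 0 h in each later group, except Tpi1 in FGF10 72 h. Ldha averaged 902 ± 133 CPM at 0 h, 3892 ± 439 in FGF10 36 h, 5838 ± 2160 in BSA 36 h, 3666 ± 499 in FGF10 72 h and 3884 ± 170 in BSA 72 h (SD, n = 3 each). Pkm, the last ATP-making step, averaged 1062 ± 159 CPM at 0 h, 5179 ± 472 in FGF10 36 h, 5445 ± 1340 in BSA 36 h, 4274 ± 315 in FGF10 72 h and 3557 ± 372 in BSA 72 h. Aldoa averaged 1067 ± 292 CPM at 0 h, 2746 ± 686 in FGF10 36 h, 5437 ± 2260 in BSA 36 h, 3582 ± 943 in FGF10 72 h and 5975 ± 313 in BSA 72 h. The 3 were called higher against 0 h in all 4 comparisons, together with Gpi1, Pfkp, Gapdh, Pgk1, Pgam1, Eno1, Slc16a1, Slc16a3, Car9, Car12, Ankrd37, Egln1, Ddit4 and P4ha1. Tpi1 averaged 686 ± 180 CPM at 0 h, 1177 ± 201 in FGF10 36 h, 2130 ± 1070 in BSA 36 h, 1161 ± 112 in FGF10 72 h and 1489 ± 97.4 in BSA 72 h. It was called higher in BSA 36 h (adjusted p = 0.00104), BSA 72 h (0.0121) and FGF10 36 h (0.0474). In FGF10 72 h it was not called (0.0653), although its libraries, at 1249, 1199 and 1035 CPM, lay above those at 0 h (836.5, 736.2 and 486.8 CPM).

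The glucose entry genes Slc2a1 and Hk2 were called in fewer comparisons. Slc2a1 averaged 115 ± 18.2 CPM at 0 h, 146 ± 41.1 in FGF10 36 h, 188 ± 28.5 in BSA 36 h, 107 ± 13.4 in FGF10 72 h and 161 ± 9.08 in BSA 72 h. Hk2 averaged 17.04 ± 12.9 CPM at 0 h, 29.1 ± 8.93 in FGF10 36 h, 44.5 ± 16.2 in BSA 36 h, 16.6 ± 2.48 in FGF10 72 h and 35.8 ± 3.28 in BSA 72 h, and its 0 h libraries were themselves far apart (6.21, 31.3 and 13.7 CPM). Slc2a1 and Hk2 were called in BSA 36 h alone of the 4 comparisons with 0 h. Hif1a averaged 122 ± 63.7 CPM at 0 h, 224 ± 97.7 in FGF10 36 h, 333 ± 164 in BSA 36 h, 298 ± 35.5 in FGF10 72 h and 377 ± 43.4 in BSA 72 h, and it was called higher in BSA 36 h, FGF10 72 h and BSA 72 h. Vegfa, called in the same 3 comparisons, averaged 20.9 ± 6 CPM at 0 h, 35.6 ± 12.1 in FGF10 36 h, 74.1 ± 34.3 in BSA 36 h, 42.9 ± 7.93 in FGF10 72 h and 71.1 ± 2.97 in BSA 72 h. Egln1 averaged 21.9 ± 1.16 CPM at 0 h, 39.5 ± 4.09 in FGF10 36 h, 59.2 ± 26.9 in BSA 36 h, 41.9 ± 5.35 in FGF10 72 h and 50.98 ± 5.38 in BSA 72 h and was called in all 4.

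Some members fell. Egln3 averaged 29.2 ± 6.41 CPM at 0 h, 15.1 ± 4.77 in FGF10 36 h, 12.7 ± 2.97 in BSA 36 h, 13.2 ± 2.45 in FGF10 72 h and 14.6 ± 1.21 in BSA 72 h, and its log2 difference from 0 h ran from -1.20 in BSA 36 h (adjusted p = 0.00153) to -0.96 in FGF10 36 h (adjusted p = 0.00475). It is itself a HIF target in many cells, and its fall stood against the rise of most HIF targets of the set. Pfkfb4 averaged 11.7 ± 2.47 CPM at 0 h, 5.93 ± 0.105 in FGF10 36 h, 7.299 ± 1.71 in BSA 36 h, 6.27 ± 0.426 in FGF10 72 h and 8.04 ± 1.2 in BSA 72 h, and it fell in FGF10 36 h (-0.97, adjusted p = 0.00219), BSA 36 h (-0.67, 0.0247) and FGF10 72 h (-0.89, 0.00477). With FGF10, Aldoc fell at 36 h (-1.15, adjusted p = 0.000277) and 72 h (-0.71, 0.00949), as did Pfkm (-0.70, 0.00752, and -0.56, 0.0324), and Eno2 at 36 h (-0.82, 0.0475). Those 3 genes were not called in either BSA group. Ldhb was not called in any of the 9 comparisons, at 68.6 ± 12.1 CPM at 0 h, 82.7 ± 44.9 in FGF10 36 h, 74.2 ± 18.6 in BSA 36 h, 95.6 ± 11.4 in FGF10 72 h and 89.7 ± 4.59 in BSA 72 h.

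A set of 10 genes was called higher than 0 h in BSA 36 h and not in FGF10 36 h, namely Slc2a1, Hk1, Hk2, Pdk1, Vegfa, Bnip3, Hif1a, Adm, P4ha2 and Pfkfb3. Of these Pdk1 alone was called in the direct comparison of the beads at 36 h, so the other 9 are not shown to differ between them. The share of all tested genes with this pattern was not counted, so the number 10 describes the set and is not a result about it. Several calls against 0 h depended on single libraries. In FGF10 36 h, leaving out 1 library at a time lost the call of Eno2 in 11 of the 15 fits (adjusted p 0.05 to 0.16), Tpi1 in 11 of the 15 fits (adjusted p 0.0571 to 0.173) and Pfkl in 3 of the 15 fits (adjusted p 0.0897 to 0.114). In BSA 36 h, leaving out 1 library at a time lost the call of Hk2 in 10 of the 15 fits (adjusted p 0.0501 to 0.131), Pfkfb4 in 4 of the 15 fits (adjusted p 0.0528 to 0.0934) and Hif1a in 3 of the 15 fits (adjusted p 0.0641 to 0.0929). Other calls lost there were Hk1 without 0 h replicate 4 or BSA 36 h replicate 1 (adjusted p 0.0652 to 0.0662), P4ha2 without BSA 36 h replicate 2 or BSA 36 h replicate 3 (adjusted p 0.0715 to 0.0735), Pfkfb3 without 0 h replicate 4 (adjusted p 0.0533) and Slc2a1 without BSA 36 h replicate 2 (adjusted p 0.0589). In FGF10 72 h, leaving out 1 library at a time lost the call of Hif1a in 5 of the 15 fits (adjusted p 0.0586 to 0.108), Vegfa in 4 of the 15 fits (adjusted p 0.0758 to 0.0958) and Pfkm in 3 of the 15 fits (adjusted p 0.1 to 0.157). A further call lost there was Aldoc without FGF10 72 h replicate 4 (adjusted p 0.0573). In BSA 72 h, leaving out 1 library at a time lost the call of Pfkfb3 in 5 of the 15 fits (adjusted p 0.0538 to 0.101) and Hk1 in 4 of the 15 fits (adjusted p 0.0536 to 0.0991). Other calls lost there were Hif1a without 0 h replicate 4 (adjusted p 0.051) and Tpi1 without 0 h replicate 4 (adjusted p 0.0567).

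Markers of other cells also differed from 0 h. Of all tested genes 20.5% were lower in FGF10 36 h, 14.4% in BSA 36 h, 16% in FGF10 72 h and 13% in BSA 72 h. The shares called higher were 19.3%, 12.7%, 13.8% and 12.2% in the same order of groups. Of 9 tested immune markers 7 were lower in FGF10 36 h, 7 in BSA 36 h, 7 in FGF10 72 h and 5 in BSA 72 h, and their summed CPM at 0 h was 1537 to 1996. That sum was mostly Cd74 and H2-Ab1, which averaged 1214 and 315 CPM at 0 h, beside a mean sum of 1772. Endothelial markers were lower in 11 of 12 in FGF10 36 h, 5 in BSA 36 h, 8 in FGF10 72 h and 1 in BSA 72 h, from sums of 82.3 to 550.5 CPM at 0 h. Fibroblast markers were lower in 9 of 12 in FGF10 36 h, 6 in BSA 36 h, 7 in FGF10 72 h and 3 in BSA 72 h, and 1 was higher in each FGF10 group. Epithelial markers were lower in 4 of 12 in FGF10 36 h, 5 in BSA 36 h, 4 in FGF10 72 h and 6 in BSA 72 h, and higher in 4, 2, 2 and 2 in the same order of groups. Fibroblast genes summed to 483 to 896 CPM and adipocyte genes to 66.1 to 557 CPM at 0 h, and 6 of 10 adipocyte markers and 2 of 9 immune markers were higher in BSA 72 h than at 0 h. The adipocyte sum at 0 h was mostly Fabp4, which averaged 341.8 CPM. Lpl came next at 8.725 CPM, and Adipoq averaged 0.2394 and Plin1 0.1338 CPM, so that sum mostly gives the level of 1 gene. Ptprc stood at 6.04 to 8.64 CPM at 0 h and at 0.122 to 2 CPM in the 12 later libraries. Their part in the members' rise was not tested.

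Between 36 h and 72 h few members were called, which with 3 libraries per group does not show that their levels held. With BSA, Eno1 averaged 656.1 ± 66.9 CPM at 36 h and 401.4 ± 18.3 at 72 h. Adm averaged 20.99 ± 11.3 and 46.18 ± 6.76 CPM. Of the members' estimates with BSA, 16 lay above 0 and 20 below, with a median of -0.047. In BSA 72 h against BSA 36 h edgeR called 0 of 36 members, beside 0.469% of tested genes (0.325% higher and 0.143% lower), with 5 lower and 0 higher at an unadjusted p under 0.05, a level passed by 16% of tested genes. DESeq2 called 2 members lower, among 577 genes. In FGF10 72 h against FGF10 36 h, 1 member was called, Car12, beside 1.91% of tested genes (1.42% higher and 0.491% lower). Its adjusted p was 0.052 in the fit lacking FGF10 36 h replicate 3, 0.0532 in the fit lacking FGF10 36 h replicate 4, 0.0539 in the fit lacking FGF10 72 h replicate 2 and 0.0549 in the fit lacking FGF10 72 h replicate 4. The BSA 72 h libraries lay wholly above BSA 36 h in 2 members and wholly below in 5 (14.3% and 16.5% of tested genes), and the FGF10 72 h libraries above FGF10 36 h in 2 and below in 2 (11.2% and 9.9%). Outside the set, Fbp1 rose by 2.62 on the log2 scale (adjusted p = 0.00267) and Txnip by 1.05 (adjusted p = 0.0311) with FGF10 between these times, and the glycerol phosphate dehydrogenase Gpd1 had a log2 difference of -1.10 (adjusted p = 0.043).

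Related forms of an enzyme or transporter changed in proportion, here as shares of their summed CPM per kb of exon. Slc16a3 made up 4.4 ± 0.578% of Slc16a1 and Slc16a3 at 0 h, 17 ± 4.07% in FGF10 36 h, 43.2 ± 20.5% in BSA 36 h, 21.9 ± 11.1% in FGF10 72 h and 66.6 ± 3.67% in BSA 72 h (SD, n = 3 each). At 72 h the highest FGF10 library was at 33% and the lowest BSA library at 62.7%, so Slc16a1 was the larger part with FGF10 and Slc16a3 with BSA. Aldoc made up 20.6 ± 3.76% of the aldolases at 0 h, and 4.35 ± 1.14% in FGF10 36 h, 4.68 ± 1.36% in BSA 36 h, 4.46 ± 0.474% in FGF10 72 h and 4.12 ± 0.475% in BSA 72 h. The mean shares of the beads lay within 1 SD of each other at each time. Ldhb fell short of a call but its share of the lactate dehydrogenases was 13.9 ± 2.68% at 0 h, 4.4 ± 2.58% in FGF10 36 h, 2.95 ± 1.6% in BSA 36 h, 5.22 ± 0.0899% in FGF10 72 h and 4.64 ± 0.208% in BSA 72 h. Pfkm made up 21.7 ± 1.4% of the phosphofructokinases at 0 h, 9.84 ± 0.591% in FGF10 36 h, 7.94 ± 0.822% in BSA 36 h, 11 ± 1.52% in FGF10 72 h and 7.74 ± 0.536% in BSA 72 h, while Pfkl held the largest share throughout. The hydroxylase pair turned over as well, Egln3 holding 63.9 ± 5.25% of Egln1 and Egln3 at 0 h and 15.3 to 42.1% in the 12 later libraries. These shares were not tested.

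**Figure D4:**
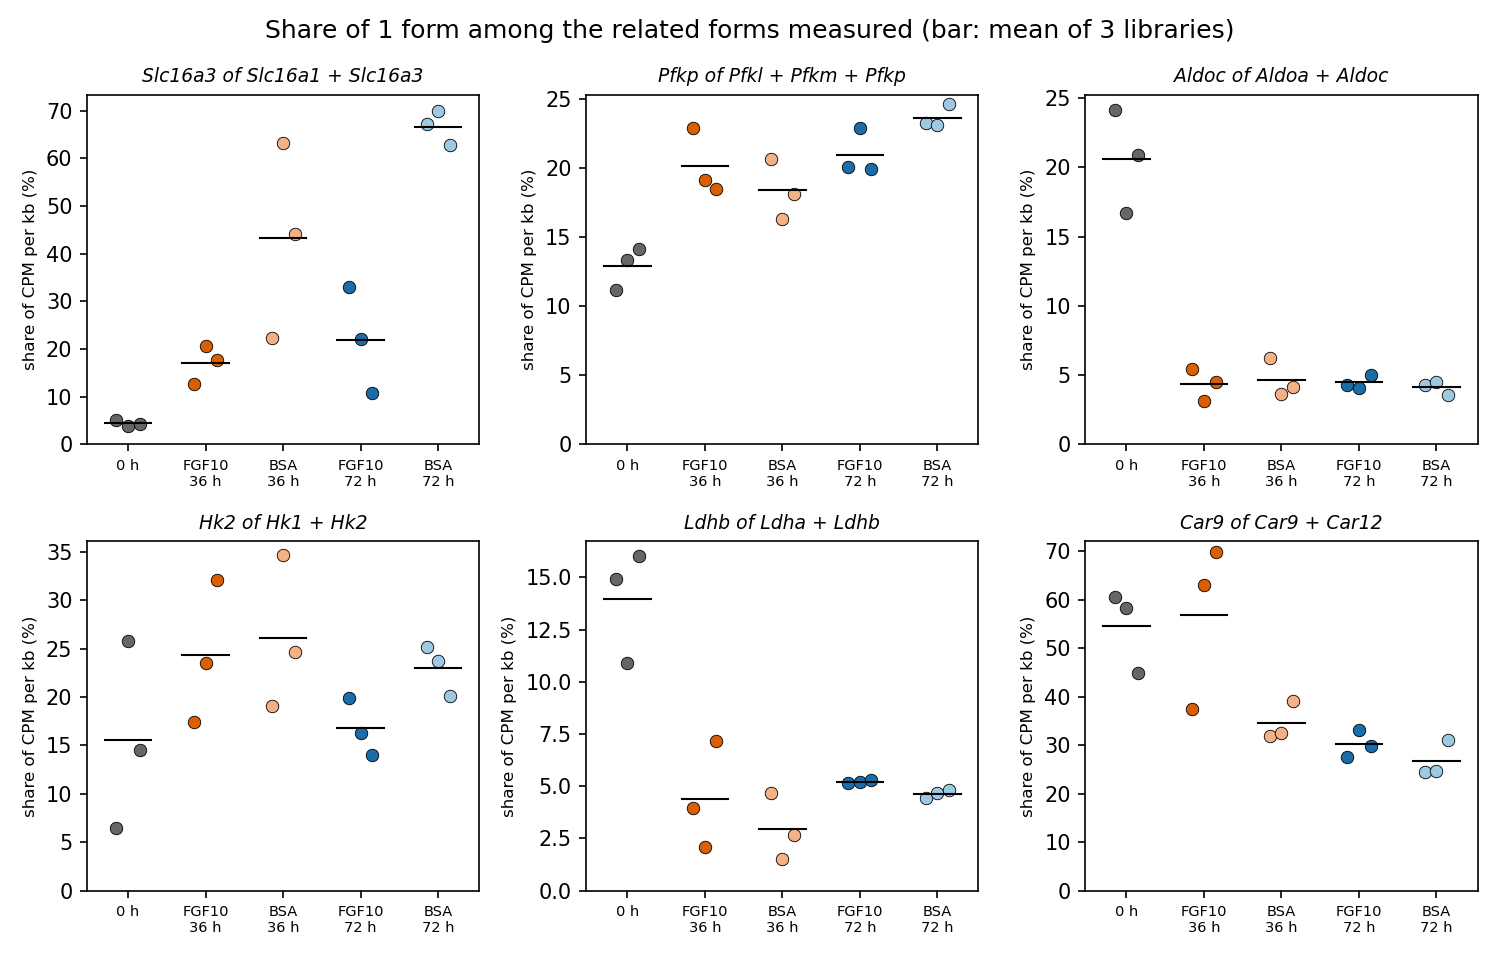
Share of 1 gene among its related forms, as a percentage of summed CPM per kb of exon, in each library (points) with the mean of 3 (bars), at 0 h and then with FGF10 left of BSA. The Slc16a3 share is highest in BSA 72 h and does not overlap FGF10 72 h, and the Aldoc and Ldhb shares are high at 0 h only.

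Libraries of a group differed in the level of the whole set. Among BSA 36 h libraries, 26 of 36 members (72.2%) were highest in replicate 2 and lowest in replicate 1, an order found in 23.5% of all tested genes. The ratio of replicate 2 to replicate 1 was 5.31 for Bnip3, 4.3 for Slc16a3 and 3.08 for Adm, and it was 0.611 for Car12, 0.628 for Car9 and 0.633 for Ldhb. The median member lay 0.354 above its group mean on the log2 scale in BSA 36 h replicate 2 and 0.386 below in replicate 1 (a deviation of -0.386). In FGF10 72 h, 52.8% of members were ordered replicate 2, 3, 4 from high to low, against 18.7% of tested genes, and replicate 4 had a median deviation of -0.202. The BSA 72 h libraries deviated by -0.034 to 0.035. What differed between these libraries was not tested.

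Genes of the same pathways outside the set were also counted. Of 41 tested genes of glycolysis and adjoining sugar metabolism, 0 were higher and 6 lower with FGF10 at 36 h, or 14.6%, and 1 higher and 7 lower at 72 h, or 19.5%. Of 37 further hypoxia genes, 0 were higher and 5 lower at 36 h, or 13.5%, and 0 higher and 10 lower at 72 h, or 27%. Of all tested genes 2.34% were called at 36 h and 5.99% at 72 h. The median log2 difference was -0.065 and -0.415 for these lists at 36 h, and -0.079 and -0.431 at 72 h, so that the median of the first list was close to that of all genes.

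Heme oxygenase 1 (Hmox1) averaged 53.7 ± 17.6 CPM in FGF10 36 h and 189 ± 54.4 in BSA 36 h (log2 difference -1.81, SE 0.295, adjusted p = 0.00716), and 64.05 ± 17.3 in FGF10 72 h and 250 ± 18.6 in BSA 72 h (log2 difference -1.97, SE 0.296, adjusted p = 0.00332). Basigin (Bsg), the chaperone that carries Slc16a1 and Slc16a3 to the membrane, averaged 1233 ± 191 CPM in FGF10 36 h and 3494 ± 1940 in BSA 36 h (log2 difference -1.50, SE 0.324, adjusted p = 0.0252), and 1466 ± 315 in FGF10 72 h and 3834 ± 217 in BSA 72 h (log2 difference -1.39, SE 0.323, adjusted p = 0.0239). Both were thus lower with FGF10 at both times. Also lower at both times were the kinase Pdk2 (-0.90 and -0.71 on the log2 scale at 36 h and 72 h), pyruvate carboxylase Pcx (-1.29 and -1.33), the glucose-responsive gene Txnip (-1.23 and -0.84), the D-lactate dehydrogenase Ldhd (-0.83 and -0.72), phosphoglucomutase Pgm1 (-0.94 and -0.97), glycogen synthase Gys1 (-0.81 and -0.60), the glycogen phosphatase subunit Ppp1r3c (-2.33 and -1.76), stanniocalcin Stc1 (-1.66 and -1.50) and the cytochrome oxidase subunit Cox4i2 (-1.36 and -1.35). Lower at 72 h were Jmjd6 (-0.67), the glycogen branching enzyme Gbe1 (-0.62), Gpd2 (-0.54), Plod1 (-0.94), Cited2 (-0.97) and the adenylate kinase Ak4 (-1.14). The gluconeogenic enzyme Fbp1 was higher, at 18.2 ± 1.48 CPM in FGF10 72 h and 4.88 ± 0.497 in BSA 72 h (log2 difference 1.90, SE 0.36, adjusted p = 0.00985).

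Against 0 h these lists moved in both directions. Of the 41 sugar metabolism genes 9 were higher and 12 lower in FGF10 36 h, 9 and 11 in BSA 36 h, 6 and 9 in FGF10 72 h, and 9 and 8 in BSA 72 h. Of the 37 hypoxia genes 10 were higher and 6 lower in FGF10 36 h, 15 and 3 in BSA 36 h, 11 and 5 in FGF10 72 h, and 14 and 3 in BSA 72 h. In that order of groups, 51.2%, 48.8%, 36.6% and 41.5% of the sugar metabolism genes were called in either direction. For the hypoxia genes the shares were 43.2%, 48.6%, 43.2% and 45.9%, and for all tested genes 39.8%, 27.1%, 29.9% and 25.2%. Txnip averaged 1230 ± 340 CPM at 0 h, 55.1 ± 16.4 in FGF10 36 h, 129.6 ± 10.5 in BSA 36 h, 114 ± 24.5 in FGF10 72 h and 204 ± 1.98 in BSA 72 h, and Hmox1 averaged 15.6 ± 4.41 CPM at 0 h. The transferrin receptor gene Tfrc averaged 8.11 ± 0.461 CPM at 0 h, 45.3 ± 8.13 in FGF10 36 h, 37.8 ± 9.73 in BSA 36 h, 37.5 ± 9.52 in FGF10 72 h and 36.98 ± 2 in BSA 72 h, and the pentose phosphate enzyme Pgd averaged 103 ± 7.42 CPM at 0 h, 313 ± 62.8 in FGF10 36 h, 356 ± 17.2 in BSA 36 h, 279 ± 18.1 in FGF10 72 h and 284 ± 22.4 in BSA 72 h. Txnip was called lower and the other 3 higher than at 0 h in all 4 later groups, and Ero1a, for disulfide formation in the endoplasmic reticulum, was called higher in all 4.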

How the data were processed

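The mRNA of 15 mouse mammary organoid libraries was sequenced with a stranded Illumina kit, per the labels' protocols. The deposited values are raw counts of fragments per gene name; per the file headers they were made by featureCounts 2.0.1 on paired reads over exons, without strand and without fragments that matched several places or genes, so antisense and copied genes are uncertain. FastQC, cutadapt 1.9.1, HISAT2 2.2.1, HTSeq, DESeq2 and GRCm39 are named in the submitters' processing notes, where HTSeq differs from the counter in the headers.

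Of 54456 genes, 36316 were removed as low by filterByExpr at a count of 10 and a total of 15; the 18140 left were scaled by TMM. A quasi-likelihood fit of 5 group means over the 15 libraries in edgeR 4.0.16 (R 4.3.3, limma 3.58.1) gave 9 comparisons, with 10 residual degrees of freedom (common BCV, the variation between libraries beyond counting, 0.234). Benjamini-Hochberg adjustment ran over all 18140 genes within each comparison, and genes under 0.05 were called. Standard errors were computed from the log2 difference and the F statistic. CPM used TMM-scaled library sizes. On simulated counts for FGF10 36 h against BSA 36 h, 75% of genes changed by 1 and 95% of genes changed by 2 on the log2 scale were recovered (17762 genes in that step). The changed genes had means above 5 CPM, the other genes had equal means in all groups, and counts were drawn independently. Shifts of a whole set between libraries were not simulated, so these shares are not the power for these data.

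The members and lists were chosen with earlier results of these data known. Outside the set, genes of the pathway lists were named if called for FGF10 against BSA, or if among the 4 with the smallest adjusted p in another comparison at a mean of at least 5 CPM, and per-library values were given for members called for FGF10 against BSA and for the members with the 5 largest called differences elsewhere. Alternatives were DESeq2 1.42.0 and its size factors, other filters, the replicate number as a block, only the groups compared, libraries 2_1 and 2_2 summed, and each library left out.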

Additional observations from a re-analysis of the deposited data

How the results depend on the processing

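The number of members called for FGF10 against BSA differed between fits. At 36 h it was 4, and it was 8 with the replicate block, 0 in a fit of only the groups compared, 13 by the DESeq2 Wald test and 1 to 13 with a library left out. Calls over all tested genes at 36 h were 425, 479, 78, 1083 and 127 to 852 in the same order. At 72 h the number of members called was 10, and it was 1 with BSA 72 h libraries 2_1 and 2_2 summed, 27 in a fit of only the groups compared, 17 by the DESeq2 Wald test and 0 to 14 with a library left out. Over all tested genes the calls at 72 h were 1087, 277, 5025, 1949 and 148 to 1950 in the same order, so both counts moved with the fit. For BSA 72 h against BSA 36 h the number of members called was 0, and it was 1 with no filter on low counts, 1 with only the groups compared, 2 by DESeq2 and 0 to 1 with a library left out. All genes called there numbered 85, 217, 1182, 577 and 0 to 569. For FGF10 72 h against FGF10 36 h the number of members called was 1, and it was 3 with the replicate block, 0 with only the groups compared and 0 to 1 with a library left out. All genes called there numbered 346, 671, 161 and 99 to 434. Against 0 h, leaving out a library gave 21 to 26 calls in FGF10 36 h (24 in full), 26 to 31 in BSA 36 h (31), 21 to 27 in FGF10 72 h (23) and 25 to 30 in BSA 72 h (29). The change of the FGF10 effect gave 0 in each.

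Same-numbered libraries of different groups deviated together in some pairs and not in others: of 21 such pairs, 9 had a correlation over 0.1 and the lowest was -0.158, against 10 of 69 pairs with different numbers. The median correlation was 0.027 for pairs of the same number and -0.012 for the others. The pairs of replicates 1 and 3 between FGF10 36 h and BSA 36 h had the highest values, 0.449 and 0.286. Not every pair passed 0.1, and not every library correlated best with its own number. These values do not settle whether the number is a pairing, and the main fit did not use it. With the replicate block, 3 of the 4 calls at 36 h were kept (Pdk1 lost, adjusted p = 0.0543), and 7 of the 10 at 72 h (Eno1 lost, 0.0535, Gpi1, 0.0841, and Pfkl, 0.0576). The other counts with it were 11 at 72 h, 29 in FGF10 36 h, 31 in BSA 36 h, 25 in FGF10 72 h and 29 in BSA 72 h against 0 h, and 0 for the change of effect. Its median log2 differences of members for FGF10 against BSA were -0.419 at 36 h and -0.41 at 72 h, against -0.593 and -0.573 without the block.

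No called member changed sign under any alternative run. Of 3960 values of members under the alternatives, 3685 kept their direction and their side of the threshold, 188 lost a call, 75 gained one and 12 changed sign. With a library left out, estimates for FGF10 against BSA at 36 h that changed sign ran from -0.152 to 0.395 for Ddit4 (below 0 without FGF10 36 h replicate 1, -0.031, or replicate 3), -0.036 to 0.456 for Egln3 (below 0 without FGF10 36 h replicate 1), -0.019 to 0.135 for Eno1 (below 0 without FGF10 36 h replicate 4 or BSA 36 h replicate 3, -0.009), -0.357 to 0.458 for Ldhb (below 0 without FGF10 36 h replicate 4) and -0.233 to 0.111 for Pkm (above 0 without BSA 36 h replicate 2). At 72 h Ldha ran from -0.174 to 0.02 (above 0 without FGF10 72 h replicate 4). With the replicate block, Ldhb was at -0.045 at 36 h and -0.021 at 72 h, Ldha at 0.081 and Pgam1 at 0.059 at 72 h. The cause was not tested. Eno2 had 21 to 104 counts per library, and what such depth adds to its error was not tested.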
